A study of Mus musculus with 8 samples.

Results

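DamID in 3T3-L1 adipocytes was used here to set the lamina-associated domains (LADs) found after knockdown of *Tmem120a* beside those found after knockdown of both *Tmem120a* and its paralog *Tmem120b*. The regions described are the pieces of at least 15 kb that lay in a LAD of one of these 2 lists and in no LAD of the other. There were 8099 of them: 4045 in the Tmem120a knockdown list alone, called the single knockdown list here, and 4054 in the double knockdown list alone, where the 4 condition lists of the series hold 19150 LADs in all. The question the pair of lists addresses is what differs at the nuclear periphery when *Tmem120b* is depleted in addition to *Tmem120a*.

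3T3-L1 is an established mouse fibroblast line that turns into adipocytes when induced with insulin, dexamethasone, IBMX and rosiglitazone. Both knockdown groups were adipocytes at day 9 of differentiation from stable shRNA lines, one labelled Tmem120a shRNA and the other Tmem120a/b shRNA. Control adipocytes at day 9 carried a control non-target shRNA, and preadipocytes were undifferentiated cells at day 0 labelled untreated, so that the preadipocytes differ from the other groups in shRNA as well as in differentiation. Each condition has 1 Dam and 1 LaminB1-Dam library delivered by lentivirus, and no condition has a replicate. No value below can therefore be set against a spread between cultures, no p-value is given, and a difference between the lists cannot be told apart from a difference between the 2 cultures. The lists hold positions only, so read depth, the strength of a LAD, the depletion of either transcript and the adipocyte markers of the cells were not analysed here.

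The nuclear lamina is a protein meshwork under the inner nuclear membrane, and chromatin that touches it is mostly gene-poor and silent. Particular loci can be tethered by transmembrane proteins of the nuclear envelope, many of which are found in only a few tissues. Lamins occur in nearly all cell types. Tmem120a and Tmem120b are transmembrane proteins of the nuclear envelope found in fat. A LAD call is made over a population of cells, so fewer cells with a contact and a weaker contact in each cell cannot be told apart. In DamID, LaminB1 is fused to the bacterial adenine methylase Dam, which marks GATC sites near the lamina, and the free enzyme serves as the control for accessibility.

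Because Dam acts at GATC, the borders of the deposited LADs fall at GATC sites, and this is what a piece looks like at its ends. In the mm9 sequence 98.6% of 11446 borders in the single knockdown list and 98.8% of 13942 borders in its double knockdown counterpart lay at the same offset in a GATC. The borders of the longest piece of each list, and of the piece of the double knockdown list with the most genes, are printed on the forward strand of mm9 with the GATC at the border in capitals.
Start of the longest piece in the single knockdown list alone, chr14:92591801-92591844: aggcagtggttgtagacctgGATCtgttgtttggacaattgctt
End of the same piece, chr14:92859677-92859720: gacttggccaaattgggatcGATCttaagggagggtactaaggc
Start of the longest piece in the double knockdown list alone, chr19:22120272-22120315: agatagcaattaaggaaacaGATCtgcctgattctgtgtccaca
End of the same piece, chr19:22377672-22377715: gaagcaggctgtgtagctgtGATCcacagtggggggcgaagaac
Start of the piece over the trace amine receptor cluster, chr10:23616705-23616748: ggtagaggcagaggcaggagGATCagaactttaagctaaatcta
End of the same piece, chr10:23803453-23803496: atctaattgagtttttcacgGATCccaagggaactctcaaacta

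The 2 knockdown lists shared most of their length. The single and the double knockdown list had 1000 Mb in common, which was 86.0% of the former and 86.1% of the latter. The pieces made up 145 Mb (12.5%) of the former and 147 Mb (12.6%) of the latter, a ratio of 1.01. Their lengths were also alike, with medians of 29.8 kb and 29.9 kb, quartiles of 21.3 to 43.4 kb and of 21.3 to 44.0 kb, and 68 and 75 pieces of at least 100 kb. The 15 kb threshold leaves out 2398 shorter differences (17.9 Mb) in the single knockdown list, against 1969 (14.3 Mb) in that of the double knockdown. The shortest pieces kept were 15005 and 15002 bp, and the longest left out were 14981 and 14994 bp. A piece held 78 GATC sites at the median in the single knockdown list, against 77 in the double knockdown list, with no piece under 18, so that each difference spans many restriction fragments.

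In base composition the pieces lay between the stretches held by both lists and those held by neither. GC content was 39.4% in stretches held by both, 40.4% in pieces of the single knockdown list alone, 42.2% in pieces of the double knockdown list alone, and 43.8% in sequence in neither list. Starts of protein-coding genes followed the same order, at 4.23, 4.90, 6.94 and 12.2 per Mb. GATC sites ran the other way but differed little, at 2.60, 2.55, 2.51 and 2.43 per kb. The pieces that only the double knockdown list held were thus richer in GC and in gene starts than those that only the single knockdown list held.

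The pieces differed in their place within the LAD. A piece was called a whole LAD when neither end touched a stretch held by both lists, an edge when 1 end did, and a bridge when both did, which is to say that the other list had a gap there inside a longer domain. In the double knockdown list alone 1852 pieces (45.7%, 95% Wilson interval 44.2 to 47.2) were whole LADs, 1455 (35.9%, 34.4 to 37.4) were edges and 747 (18.4%, 17.3 to 19.6) were bridges. In the single knockdown list alone 1458 (36.0%, 34.6 to 37.5) were whole LADs, 1416 (35.0%, 33.6 to 36.5) were edges and 1171 (28.9%, 27.6 to 30.4) were bridges. Edges were about equally frequent, while whole LADs were more frequent in the double knockdown list and bridges in the single knockdown list. These intervals count pieces of 1 pair of lists, neighbouring pieces are not independent, and they hold no error between cultures. The shares are of pieces, and the lists differ in their number of LADs, at 5723 (single knockdown) and 6971 (double knockdown). With gaps under 50 kb closed, the single knockdown pieces were 39.1% whole LADs and 18.4% bridges. The double knockdown pieces were then 43.7% whole LADs and 13.6% bridges.

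**Figure D1:**
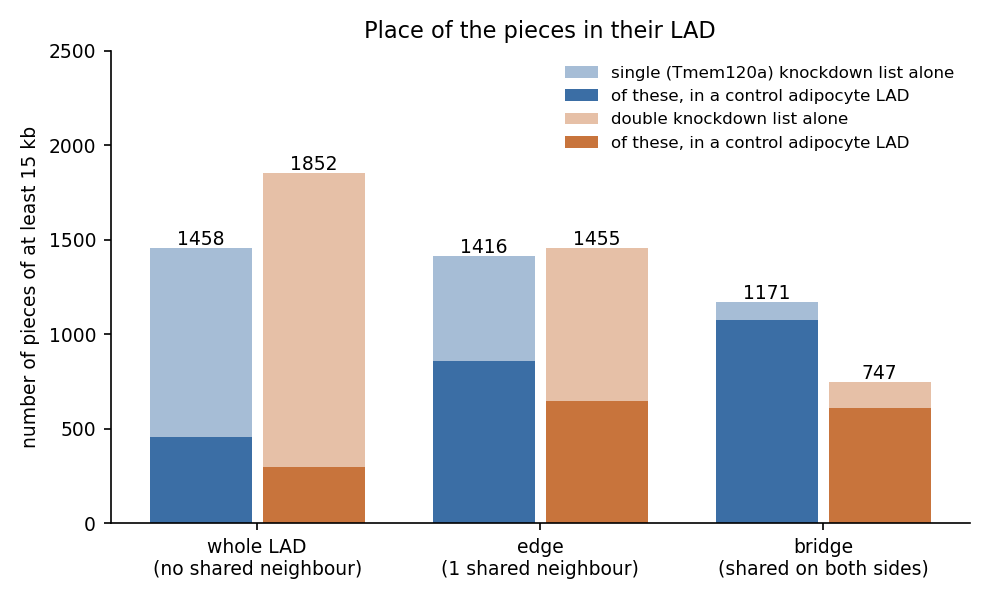
Number of pieces of at least 15 kb (vertical axis) by place in the LAD, for the single knockdown list alone (blue) and the double knockdown list alone (orange). The dark part of each bar counts pieces with at least 50% of their length in a control adipocyte LAD, which is most of each bridge bar (1073 of 1171 and 608 of 747) and the lesser part of each whole-LAD bar (454 of 1458 and 299 of 1852).

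Bridges of the single knockdown list sat in longer domains. The LAD around such a piece had a median length of 541 kb, against 269 kb for bridges of the double knockdown list, and the median distance from the bridge to the nearer end of its LAD was 72.5 kb against 44.5 kb. Of 259 LADs of at least 1 Mb in the single knockdown list, 178 (68.7%) held at least 1 stretch that was a gap in the double knockdown list. In the other direction this held for 41 of 163 LADs (25.2%). A single LAD of the single knockdown list was broken by up to 8 such gaps, and a LAD of the double knockdown list by up to 4. Long domains of the single knockdown list were thus more often interrupted in the double knockdown list than the reverse.

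Of all pieces of the single knockdown list 45.9% lay within 100 kb of a piece of the double knockdown list, and 45.8% in the other direction, at medians of 119 and 120 kb. The distance depended on the place of the piece. An edge of the single knockdown list lay at a median of 68.3 kb from the nearest piece of the double knockdown list, and 59.0% of edges lay within 100 kb of one. For edges of the double knockdown list the median was 79.0 kb. For whole LADs the medians were 128 kb (single knockdown) and 165 kb (double knockdown), and they lay 162 and 164 kb from the nearest stretch held by both. Bridges of the single knockdown list lay farthest from pieces of the other list, at a median of 215 kb with 34.2% within 100 kb, whereas for bridges of the double knockdown list these were 115 kb and 46.6%. No share for randomly placed pieces was computed.

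The control adipocyte and preadipocyte lists were not used to choose the pieces, and they show what state each piece had without a knockdown. Of the pieces in the single knockdown list alone, 2387 of 4045 (59.0%, Wilson interval 57.5 to 60.5) had at least 50% of their length in a control adipocyte LAD. Of those in the double knockdown list alone, 1553 of 4054 (38.3%, 36.8 to 39.8) did. For preadipocyte LADs the shares were 52.2% (50.7 to 53.7) and 44.3% (42.8 to 45.8). Stretches held by both knockdown lists had 94.8% of their length in control adipocyte LADs and 94.3% in preadipocyte LADs. By the same measure of length, pieces of the single knockdown list alone stood at 62.2% and 51.9%, and pieces of the double knockdown list alone at 37.5% and 44.9%. The pieces therefore had less of their length in LADs of cells without a knockdown than the shared stretches had. The gap between the 2 sets of pieces was wider for control adipocytes than for preadipocytes.

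The joint patterns differed in the same way. Among pieces in the single knockdown list alone, 1717 (42.4%) were LAD in both control adipocytes and preadipocytes, 670 (16.6%) in control adipocytes alone, 395 (9.77%) in preadipocytes alone and 1263 (31.2%) in neither. Among pieces in the double knockdown list alone the figures were 1162 (28.7%), 391 (9.64%), 634 (15.6%) and 1867 (46.1%). The most frequent class was thus LAD in both for the former and LAD in neither for the latter. Place and state went together, since 91.6% of bridges of the single knockdown list and 81.4% of those of the double knockdown list lay in control adipocyte LADs, against 60.7% and 44.4% of edges and 31.1% and 16.1% of whole LADs. The control adipocyte list held 2542 LADs (median 103 kb) and the preadipocyte list 3914 (83.2 kb). The knockdown lists held 5723 (59.1 kb, single) and 6971 (60.7 kb, double). Total lengths were similar, from 1161 to 1198 Mb. How far the shares by place follow from these differences in LAD number was not tested. Within each place the share in control adipocyte LADs was lower for the double knockdown list. For preadipocyte LADs the shares were closer, at 83.1% (single knockdown) and 79.7% (double knockdown) of bridges and 56.6% and 52.9% of edges. Whole LADs stood at 23.1% and 23.3%, so that the order was not kept there.

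**Figure D2:**
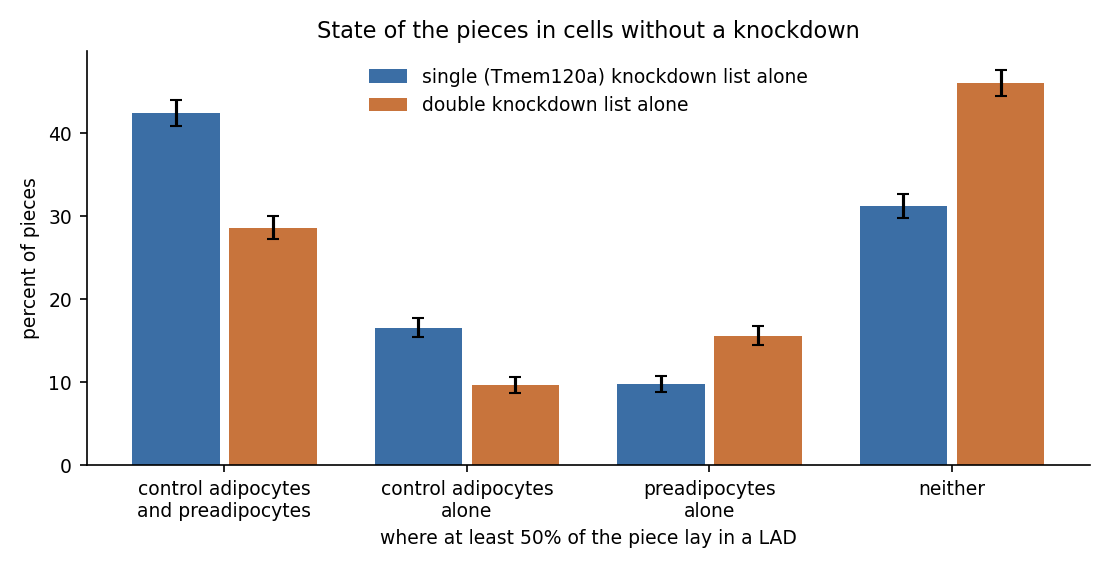
Percent of pieces (vertical axis) in each of 4 states in cells without a knockdown, for the single knockdown list alone (blue) and the double knockdown list alone (orange), with 95% Wilson intervals over pieces. The blue bar is highest for LAD in both (42.4%) and the orange bar for LAD in neither (46.1%).

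The same subtraction of each knockdown list from the control adipocyte list gives the scale of these differences. These comparisons share the knockdown lists with the one above and are given as descriptions. Control adipocyte LADs missing from the single knockdown list gave 2780 pieces (134 Mb), and those missing from the double knockdown list gave 3174 (170 Mb). LADs that the single knockdown list held and control adipocytes did not gave 2704 pieces (105 Mb), and those of the double knockdown list gave 3373 (143 Mb). In these comparisons 48.4% and 56.4% of the pieces missing were bridges and 64.6% and 66.4% of the pieces gained were whole LADs. Between preadipocyte and control adipocyte lists there were 2248 pieces (113 Mb) in the former alone and 1994 (118 Mb) in the latter alone. In both directions together the 2 knockdown lists differed by 8099 pieces. The control list differed from the single knockdown list by 5484, from the double knockdown list by 6547 and from the preadipocyte list by 4242. The difference between the knockdown lists was thus no smaller than these, and without replicates its size cannot be assigned to *Tmem120b*.

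The X chromosome had a lower ratio of double to single knockdown length than any autosome, at 0.542. It held 17.9 Mb of pieces in the single knockdown list alone and 9.72 Mb in the double knockdown list alone, which was 17.9% and 10.6% of its LAD length in these lists. Both shares lay within the range of the autosomes, which ran from 7.44% to 18.4% and from 9.14% to 18.0%. Bridges on X numbered 206 and 62. On the 19 autosomes the summed lengths were 127 Mb and 137 Mb, and 12 autosomes had more length in the double knockdown list alone while 7 had more in the single knockdown list alone. The ratio of double to single knockdown length ran from 0.840 on chromosome 5 to 1.78 on chromosome 19, where 3.53 Mb stood against 1.99 Mb. Chromosome 18 followed, with 6.33 Mb against 3.96 Mb. On chromosome Y only 9 and 5 pieces were found, at a ratio of 0.308.

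**Figure D3:**
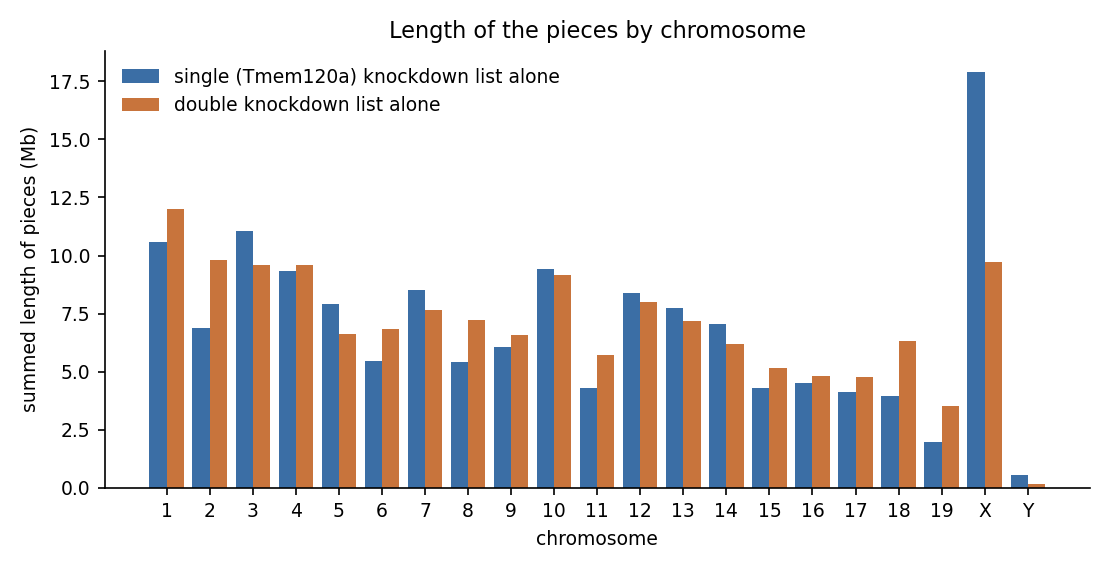
Summed length of pieces in Mb (vertical axis) on each chromosome (horizontal axis), for the single knockdown list alone (blue) and the double knockdown list alone (orange). X is the chromosome with the widest gap (17.9 and 9.72 Mb), and among autosomes the orange bar exceeds the blue one on 12 of 19.

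The longest pieces of the single knockdown list were gene-poor and lay wholly in control adipocyte LADs. The longest, 268 kb at chr14:92591824-92859699, was an edge, met no protein-coding gene, and was 100% in control adipocyte LADs and 83.1% in preadipocyte LADs. The next, 205 kb at chr14:96850474-97055602, met *Klhl1*, which encodes a kelch-type actin-binding protein, and was 100% control adipocyte LAD and 8.99% preadipocyte LAD. Bridges of 181 kb at chr5:80427266-80608341 and 178 kb at chr2:107240722-107418442 met no protein-coding gene. An edge of 172 kb at chr16:66766525-66938967 lay within *Cadm2*, a cell adhesion molecule. These last 3 pieces were also 100% control adipocyte LAD.

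The longest pieces of the double knockdown list were more varied. The longest, 257 kb at chr19:22120295-22377694, was an edge over the start of *Trpm3*, a cation channel gene, and was 7.91% control adipocyte LAD and 67.6% preadipocyte LAD. A bridge of 225 kb at chr18:81357366-81582054 met no protein-coding gene and was 51.3% control adipocyte LAD. A whole LAD of 219 kb at chrX:122167862-122386442 held 2 gene models, *Gm17679* and *Gm17693*, and had no base in a LAD of control adipocytes or preadipocytes. A bridge of 187 kb at chr10:23616728-23803475 met 13 genes. These are *Vnn1*, a pantetheinase, and 12 trace amine-associated receptor genes from *Taar1* to *Taar8a*. It had no base in a control adipocyte LAD and 36.4% in preadipocyte LADs. An edge of 171 kb at chr7:129593661-129765047 lay in *Prkcb*, protein kinase C beta, and was 80.4% control adipocyte LAD.

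Among protein-coding genes, 1683 of 22367 (7.52%) met a piece of the single knockdown list and 2173 (9.72%) met a piece of the double knockdown list, 416 of them meeting both. Genes with at least 50% of their body in such pieces numbered 587 (2.62%) and 877 (3.92%). Gene starts inside a piece numbered 712 (3.18%) and 1018 (4.55%), and genes wholly inside numbered 346 (1.55%) and 508 (2.27%). These shares are the background for the groups of genes below. Of the pieces, 2315 (57.2%) of the single knockdown list and, for the double knockdown, 1956 (48.2%) met no protein-coding gene, and 14.1% and 19.2% held a gene start. By each of these counts more genes lay in the pieces of the double knockdown list. Any overlap favours long genes: those met had median lengths of 68.7 and 53.8 kb, against 15.4 kb for all, and those with at least 50% in pieces had medians of 10.9 and 11.3 kb.

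The richest pieces held clusters of related genes. In the single knockdown list alone, a whole LAD of 142 kb at chr7:111760213-111902189 held 6 olfactory receptor genes from *Olfr656* to *Olfr664* and was 100% control adipocyte LAD. The other 4 of the 5 richest pieces of that list had no base in a LAD of control adipocytes or preadipocytes. They were a whole LAD at chr10:77220815-77303742 with *Gm3233* and 5 neighbours, a whole LAD at chr11:114843090-114907451 with *Cd300ld* and *Cd300lh*, which encode leukocyte surface receptors, an edge at chrX:35179491-35278619 with the homeobox genes *Rhox6* to *Rhox9*, and a whole LAD at chr7:51058870-51147424 with the kallikrein protease genes *Klk4* to *Klk8*. In the double knockdown list alone the trace amine receptor piece came first. Among the other pieces were 2 edges of 1 LAD on chromosome 11, chr11:99519502-99595100 and chr11:99644533-99724826, over 12 and 9 genes of the hair keratin-associated *Krtap4* region. These edges were 0% and 0.579% control adipocyte LAD and 98.2% and 66.1% preadipocyte LAD. A whole LAD of 28.9 kb at chr1:90105420-90134320 met 10 genes, among them *Ugt1a1* to *Ugt1a10*, whose overlapping models share exons and encode enzymes that conjugate bilirubin and drugs. An edge at chr18:37630321-37711564 held 7 protocadherin genes from *Pcdhb15* to *Pcdhb22*.

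Genes were also ranked by their length in pieces, a ranking that favours long genes. *Il1rapl1*, which encodes a synaptic receptor of the interleukin-1 receptor family, had 624 kb of its 1375 kb body in 12 pieces of the single knockdown list alone. Its body was 66.2% LAD in preadipocytes, 100% in control adipocytes, 81.4% in the single knockdown and 39.4% in the double knockdown. *Pcdh9*, a protocadherin, ran from 53.8% in preadipocytes and 93.1% in control adipocytes to 38.0% in the single knockdown and 2.63% in the double knockdown. *Grik2*, a kainate receptor subunit, ran from 11.0% and 94.7% to 35.6% and 0% in the same order. For both genes the share fell from control adipocytes to the single and again to the double knockdown. *Cadm2* followed the same order with 51.6%, 100%, 83.1% and 48.5%. The others of the first 10 were *Lrrc4c*, *Dlg2*, *Spag16*, *Cdh18*, *Mctp1* and *Npas3*, with 205 to 422 kb in pieces. All of the 10 but *Npas3*, which had no base in a LAD of preadipocytes or control adipocytes, were 71.0% to 100% LAD in control adipocytes.

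The 10 leading genes of the double knockdown list alone ranged from 2.74% to 92.7% LAD in control adipocytes. *Cdh13*, which encodes T-cadherin, a receptor for adiponectin, had 401 kb of its 1041 kb body in 6 pieces. It was 13.6% LAD in preadipocytes, 2.74% in control adipocytes, 20.7% in the single knockdown and 52.7% in the double knockdown. *Esrrg*, which encodes a nuclear receptor of oxidative metabolism, stood at 91.3%, 26.3%, 46.8% and 95.8% in that order. *Rora*, another nuclear receptor gene, stood at 72.0%, 6.46%, 54.6% and 71.3%. For *Esrrg* and *Rora* the share in the double knockdown was thus close to that in preadipocytes. *Rgs6*, a regulator of G protein signalling, stood at 24.0%, 3.28%, 14.7% and 51.0%. *Negr1*, a neuronal adhesion gene, stood at 82.5%, 69.8%, 41.3% and 74.7%. *Nckap5*, *Macrod2* and *Fgfr2* were 4.89%, 39.9% and 17.9% LAD in control adipocytes. *Frmpd4* stood at 28.2%, 88.1%, 3.68% and 19.2% in the order above, and *Lrrc4c* at 66.1%, 92.7%, 58.6% and 42.6%, so that both were mostly LAD in control adipocytes, like most leading genes of the single knockdown list. The annotated body of *Fgfr2* spans 3009 kb, against 104 kb in RefSeq, so that its 347 kb may belong to other genes. *Lrrc4c* is among the first 10 of both lists, with 422 kb in 9 pieces of the single knockdown list and 202 kb in 6 pieces of the double knockdown list.

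None of 30 genes of lipid storage and adipokines and none of 29 adipogenic transcription factors had 50% of its body in a piece of either list. Few of them met a LAD at all: 1 of the 30 met one in each knockdown list, and of the 29 factors 1 met a LAD of the single knockdown list and 2 met a LAD of the double knockdown list. With 2.62% and 3.92% of all genes as background, groups of this size would hold few such genes, and nothing particular to them is read from the absence. Only *Prdm16*, which encodes a regulator of brown fat identity and was chosen for naming after its value was seen, met one. It had 41.7% of its body in 3 pieces of the double knockdown list, with 21.7% LAD in preadipocytes and no base in control adipocytes or the single knockdown. Of 38 enzymes of fatty acid and triglyceride synthesis, 1 (2.63%) met a piece of the single knockdown list and 2 (5.26%) met a piece of the double knockdown list, beside 7.52% and 9.72% of all genes. *Acsl4*, an acyl-CoA synthetase, had 52.4% of its body in a whole LAD of 42.7 kb found in the double knockdown alone, and no base in a LAD of the other 3 lists. *Elovl6*, a fatty acid elongase, had 26.3%, and *Acaca*, acetyl-CoA carboxylase, had 18.5% in the single knockdown alone, both with no base in a LAD of the other 3 lists.

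Of 27 thermogenic and brown fat genes, 3 met a piece of the single knockdown list and 4 met a piece of the double knockdown list (11.1% and 14.8%, beside 7.52% and 9.72% of all genes), and 1 in each (3.70%) had at least 50% of its body there. The latter share is near the 2.62% and 3.92% of all genes, so *Ucp1* and *Zic1* are described as single genes. *Ucp1*, the uncoupling protein of brown fat mitochondria (chr8:85814247-85822355), lay wholly in a whole LAD of 50.1 kb at chr8:85810058-85860170 in the double knockdown. In control adipocytes the nearest LAD lay 1100 kb from its start, in preadipocytes 55.5 kb and in the single knockdown 48.7 kb. *Zic1*, which encodes a transcription factor that marks brown fat precursors (chr9:91252896-91260648), showed the reverse. Its start lay in LADs of 1830 kb in preadipocytes, 1928 kb in control adipocytes and 1823 kb in the single knockdown. In the double knockdown it lay in a gap, 12.9 kb from the nearest LAD. This gap of 39.2 kb at chr9:91247712-91286942 was a bridge of the single knockdown list.

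Of 65 gene models of the sarcomere and of myogenic factors, 9 (13.8%) met a piece of the single knockdown list and 15 (23.1%) a piece of the double knockdown list, beside 7.52% and 9.72% of all genes. Any overlap favours long genes, and the median length was 25.01 kb in this group against 15.4 kb for all genes. With at least 50% of the body the counts were 1 (1.54%) and 3 (4.62%), beside 2.62% and 3.92% of all genes. *Myh4*, a fast myosin heavy chain gene (chr11:67051314-67073948), lay wholly in an edge of the single knockdown list. It was 38.1% LAD in preadipocytes, 100% in control adipocytes and the single knockdown, and 0% in the double knockdown, where the nearest LAD lay 42.1 kb from its start. *Myl1*, a myosin light chain gene (chr1:66970869-66991978), was 100% LAD in preadipocytes and the double knockdown, with no base in a LAD of control adipocytes or the single knockdown. *Myf6*, a myogenic transcription factor gene (chr10:106929916-106931785), was 100% LAD in control adipocytes and the double knockdown and 0% in preadipocytes and the single knockdown, where it lay in a gap between LADs. *Pax7*, a regulator of muscle stem cells, had 22.9% of its body in a LAD of the double knockdown and none in the other 3 lists.

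**Figure D4:**
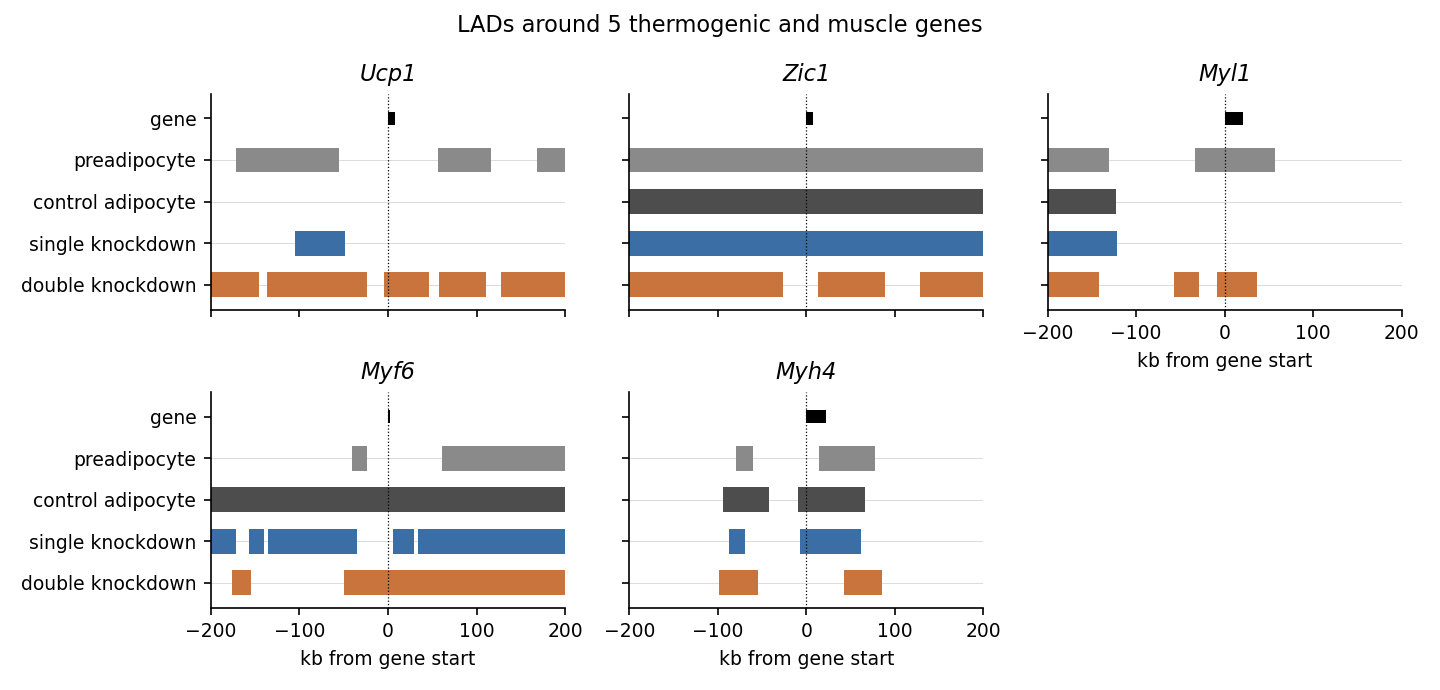
LADs in the 4 condition lists within 200 kb of the start of *Ucp1*, *Zic1*, *Myl1*, *Myf6* and *Myh4*, with distance in kb along the direction of transcription on the horizontal axis, the gene body in black and its start as a dotted line. The start lies in a LAD of the double knockdown and not of the single knockdown for *Ucp1*, *Myl1* and *Myf6*, and the reverse holds for *Zic1* and *Myh4*.

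The sequence just before these 5 gene starts is shown because a lamina contact there would be read through GATC sites, and the windows differ in how many they hold. Each is the 250 bases before the annotated start in mm9, 5′ to 3′ on the strand of the gene, with GATC in capitals. GATC reads the same on both strands. Of 22362 such windows before protein-coding genes, 40.2% held at least 1 GATC.
Ucp1, chr8:85813997-85814246, forward strand: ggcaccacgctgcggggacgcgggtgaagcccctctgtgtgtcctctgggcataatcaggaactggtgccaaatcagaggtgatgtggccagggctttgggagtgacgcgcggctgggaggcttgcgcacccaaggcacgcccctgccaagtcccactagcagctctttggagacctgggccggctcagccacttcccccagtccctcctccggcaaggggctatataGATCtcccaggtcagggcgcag
Zic1, chr9:91260649-91260898, reverse strand: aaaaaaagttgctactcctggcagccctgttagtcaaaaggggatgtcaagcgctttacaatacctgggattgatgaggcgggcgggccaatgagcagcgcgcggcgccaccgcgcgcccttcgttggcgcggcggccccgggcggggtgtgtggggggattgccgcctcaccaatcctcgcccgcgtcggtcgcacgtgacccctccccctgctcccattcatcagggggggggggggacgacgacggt
Myl1, chr1:66991979-66992228, reverse strand: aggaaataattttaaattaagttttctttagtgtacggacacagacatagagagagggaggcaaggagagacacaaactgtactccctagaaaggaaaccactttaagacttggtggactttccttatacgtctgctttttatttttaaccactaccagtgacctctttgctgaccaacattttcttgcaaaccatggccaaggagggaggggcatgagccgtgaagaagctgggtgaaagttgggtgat
Myf6, chr10:106931786-106932035, reverse strand: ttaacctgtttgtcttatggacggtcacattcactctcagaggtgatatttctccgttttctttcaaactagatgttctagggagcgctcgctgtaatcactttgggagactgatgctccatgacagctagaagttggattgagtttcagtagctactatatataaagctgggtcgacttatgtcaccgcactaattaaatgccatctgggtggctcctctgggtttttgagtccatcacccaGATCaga
Myh4, chr11:67051064-67051313, forward strand: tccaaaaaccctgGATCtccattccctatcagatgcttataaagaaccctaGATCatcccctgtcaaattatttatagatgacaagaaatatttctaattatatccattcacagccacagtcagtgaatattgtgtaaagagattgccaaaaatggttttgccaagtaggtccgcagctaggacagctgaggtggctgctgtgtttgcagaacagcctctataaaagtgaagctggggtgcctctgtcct
The windows of *Ucp1* and *Myf6* hold 1 GATC, that of *Myh4* holds 2, and those of *Zic1* and *Myl1* hold none. The pieces around these genes hold 93 to 127 GATC sites each, so the calls rest on the surroundings of the start and not on these windows alone.

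Of 54 Wnt ligands, receptors and antagonists, 3 (5.56%) met a piece of the single knockdown list and 6 (11.1%) a piece of the double knockdown list, near the 7.52% and 9.72% of all genes. *Sostdc1*, a secreted antagonist of BMP and Wnt signalling (chr12:37040756-37045039), was 100% LAD in preadipocytes and the single knockdown and had no base in a LAD of control adipocytes or the double knockdown. The antagonists *Sfrp1* and *Wif1* and the agonist *Rspo3* were 100% LAD in the double knockdown and 76.6%, 58.1% and 56.8% in the single knockdown. In the same order they were 72.9%, 100% and 100% LAD in control adipocytes and 100%, 56.3% and 100% in preadipocytes. For *Wif1* and *Rspo3* the double knockdown thus had the control value and the single knockdown a lower one. Of 64 genes of the BMP, activin and TGF-beta pathways, 5 (7.81%) and 9 (14.1%) met a piece, beside the same 7.52% and 9.72%. *Smad4*, the common mediator of these pathways (chr18:73798663-73863434), was 59.5% LAD in the single knockdown and had no base in a LAD of the other 3 lists. *Acvr1c*, a type I activin receptor expressed in fat (chr2:58119864-58210306), lay wholly in an edge of 157 kb of the double knockdown list. It was 59.3% LAD in preadipocytes, 36.1% in control adipocytes and 0% in the single knockdown.

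Among the larger families, shares of genes with at least 50% of their body in pieces are read beside 2.62% (single knockdown alone) and 3.92% (double knockdown alone) of all genes. Keratins and keratin-associated proteins stood at 2 (2.17%) and 16 (17.4%) of 92, but the 16 lay in 6 pieces, so they are few independent regions. Among them were *Krt1* and *Krt77* on chromosome 15 and *Krt39*, *Krt40* and *Krtap3-2* on chromosome 11, each 100% in the double knockdown and with no base in a LAD of the other 3 lists. Others of the 16, among them *Krtap4-6* and *Krtap4-13*, were 100% LAD in preadipocytes as well as in the double knockdown. Cadherins and protocadherins stood at 3 (4.69%) and 9 (14.1%) of 64, but 7 of the 9 shared 1 piece, so that the 9 lay in 3 pieces. They include neighbours in the *Pcdhb* cluster on chromosome 18, where *Pcdhb13* and *Pcdhb14* were LAD in the single knockdown and not in the double knockdown and *Pcdhb16* to *Pcdhb19* the reverse. A border of each list thus fell inside 1 cluster, at different genes. Potassium channels stood at 3 (3.13%) and 10 (10.4%) of 96. *Kcnk9*, *Kcna6* and *Kcna4* were 100% LAD in control adipocytes and the double knockdown and 0% in the single knockdown. *Kcnu1*, in contrast, was 90.5% LAD in the double knockdown and 0% in control adipocytes, preadipocytes and the single knockdown. *Kcnj5* and *Kcnmb3* were LAD in the single knockdown alone.

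Cytochrome P450 genes went the other way, at 8 (8.79%) and 3 (3.30%) of 91. *Cyp11b1* and *Cyp11b2*, enzymes of adrenal steroid synthesis, shared a whole LAD of 42.7 kb found in the single knockdown alone. *Cyp2d11* was LAD in preadipocytes and the single knockdown, while its neighbour *Cyp2d10* was 100% LAD in preadipocytes and 94.4% in the double knockdown. Serpins stood at 3 (5%) and 5 (8.33%) of 60, with *Serpinb7* LAD in all lists but the double knockdown and *Serpinb8* LAD in the double knockdown alone. Synaptic adhesion genes stood at 2 (3.17%) and 0 of 63, although 19 (30.2%) and 16 (25.4%) of these genes, whose median length was 291 kb, met a piece. Glutamate and GABA receptor genes stood at 2 (4%) and 1 (2%) of 50. *Gria2*, an AMPA receptor subunit, was 100% LAD in control adipocytes, 78.5% in the single knockdown and 0% in the double knockdown.

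Immune and other gene families are set beside the same shares of all genes, 2.62% and 3.92%. Chemokines and their receptors stood at 0 and 3 (4.69%) of 64, the 3 being *Ccl27b*, *Ccr8* and *Ccr6*. The second share is near its background and the counts are small, so nothing particular to chemokines is read from them. Interleukins, interferons and their receptors stood at 6 (5.66%) and 9 (8.49%) of 106. *Il10*, an anti-inflammatory cytokine, was LAD in the single knockdown alone. Its receptor gene *Il10ra* was LAD in preadipocytes and the double knockdown alone. *Il17f* was LAD in the double knockdown alone, and *Il1b* was 100% in the double knockdown, 60.0% in preadipocytes and 0% in the other 2 lists. Olfactory receptors stood at 32 (2.88%) and 29 (2.61%) of 1113, the first close to its background of 2.62% and the second below its background of 3.92%, although 1010 and 1000 of them met a LAD in these lists. Vomeronasal receptors stood at 8 (2.48%) and 1 (0.311%) of 322. Zinc finger genes stood at 22 (5.60%) and 25 (6.36%) of 393. Hox genes stood at 0 and 0 of 40, none of which met a LAD of either knockdown list.

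**Figure D5:**
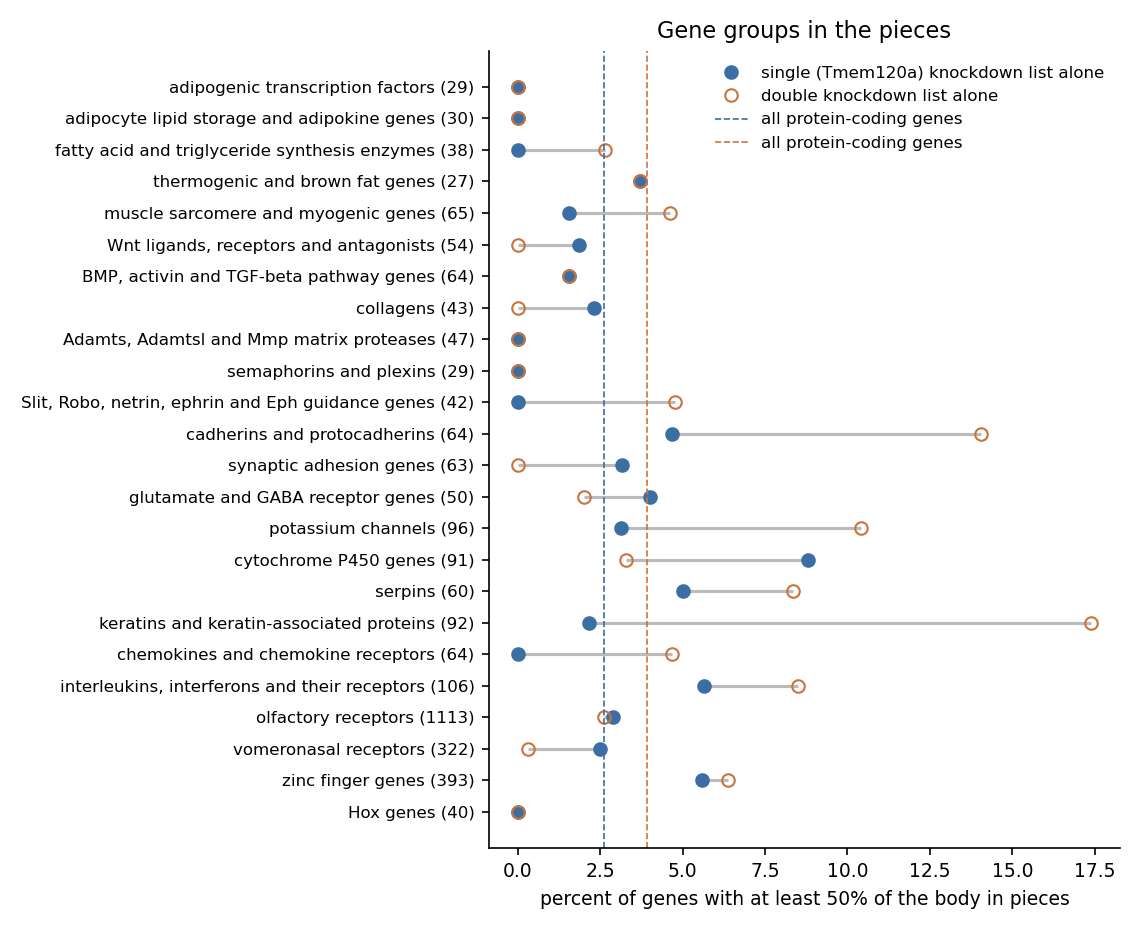
Percent of the genes of each group with at least 50% of their body in pieces (horizontal axis), for the single knockdown list alone (filled blue) and the double knockdown list alone (open orange), with the number of genes in brackets and the shares over all protein-coding genes as dashed lines (2.62% and 3.92%). Keratins (17.4%), cadherins (14.1%) and potassium channels (10.4%) lie farthest right for the double knockdown list and cytochrome P450 genes (8.79%) for the single knockdown list. The 16 keratin and 9 cadherin genes behind these shares lie in 6 and 3 pieces.

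Of the 24 genes and miRNAs named in the study's account of these loci, 23 were found in the annotation. Among these, 4 met a piece of the single knockdown list and 5 a piece of the double knockdown list. Over all protein-coding genes the shares were 7.52% and 9.72%, and over all miRNA genes 4.69% and 3.42%. The set holds both types and was named by the study, so its counts are not read as an excess. *Sema3c*, a secreted guidance protein gene, was 48.0% LAD in preadipocytes, 0% in control adipocytes and the single knockdown, and 31.4% in the double knockdown, all of it in a piece. *Ak4*, an adenylate kinase gene of mitochondria, was 17.3%, 0%, 0% and 42.6% in the same order. For these genes the double knockdown and not the single knockdown had a LAD that control adipocytes lacked. *Fh1*, fumarate hydratase of the citric acid cycle, was 100%, 0%, 100% and 31.9%. Here the single knockdown had the larger share of the gene body in a LAD. The paper describes the LAD change at *Fh1* as stronger in the double knockdown, from DamID traces. The lists hold no strength, so the 2 descriptions were not compared. *Unc13c* stood at 54.1%, 100%, 68.9% and 39.2%, with 28.9% of its body in pieces of the single knockdown list. *Jazf1* and *Myo18b* met pieces of both lists, with 2.41% and 9.59% of the body in those of the single knockdown and 5.72% and 19.5% in those of the double knockdown. *Tmem120a* and *Tmem120b* themselves had no base in a LAD of any list.

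MicroRNA genes were counted apart from protein-coding genes. Of 1577 annotated miRNA genes, 71 (4.50%) lay wholly in pieces of the single knockdown list and 52 (3.30%) in pieces of the double knockdown list. Of these, 21 and 10 carry Mir symbols, and the others are unnamed predictions. All 31 symbols matched RefSeq (GRCm38.p6) entries, and each of the 52 mature sequences there was found in the mm9 gene. The sequences below are of the miRNAs described next, 5′ to 3′, with the seed (bases 2 to 8) in capitals.
miR-206-5p: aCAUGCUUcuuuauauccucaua
miR-206-3p: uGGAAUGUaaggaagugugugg
miR-133b-3p: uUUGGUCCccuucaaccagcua
miR-1a-1-5p: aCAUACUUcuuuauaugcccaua
miR-690: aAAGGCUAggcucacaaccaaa
miR-363-3p: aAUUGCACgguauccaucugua
miR-92a-3p: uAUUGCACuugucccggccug
miR-19b-3p: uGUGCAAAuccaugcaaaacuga
miR-20b-5p: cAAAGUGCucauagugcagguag
miR-106a-5p: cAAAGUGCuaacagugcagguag
miR-18b-5p: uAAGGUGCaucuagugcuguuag
miR-743a-3p: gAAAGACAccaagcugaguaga
miR-743b-3p: gAAAGACAucaugcugaauaga
miR-742-3p: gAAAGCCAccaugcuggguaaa
miR-883a-3p: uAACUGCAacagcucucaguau

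*Mir206* and *Mir133b* (chr1:20669091-20669163 and chr1:20672850-20672968), which make miRNAs of skeletal muscle, shared a bridge of 20.6 kb of the single knockdown list at chr1:20656374-20676972. Both were 0% LAD in preadipocytes, 100% in control adipocytes and the single knockdown, and 0% in the double knockdown. *Mir1a-1* (chr2:180123753-180123829), whose miRNA is also abundant in muscle, lay in a whole LAD of 44.0 kb found in the double knockdown alone. Of *Mir1a-1* only the 5p sequence was matched. *Mir690* (chr16:28600021-28600129), one of the miRNAs the study names, lay in an 18.3 kb bridge within a LAD of 1067 kb of the double knockdown. It was 100% LAD in preadipocytes, control adipocytes and the double knockdown and lay 5.73 kb outside a LAD in the single knockdown.

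The pieces with the most named miRNA genes were on the X chromosome. A bridge of 17.4 kb at chrX:50088121-50105532 held *Mir363*, *Mir92-2*, *Mir19b-2*, *Mir20b*, *Mir18b* and *Mir106a*, a cluster related to the growth-promoting miR-17 to miR-92 cluster. In it miR-363-3p and miR-92a-3p share the seed AUUGCAC, and miR-20b-5p and miR-106a-5p share AAAGUGC. All 6 genes were 100% LAD in preadipocytes, control adipocytes and the single knockdown and 0% in the double knockdown. A bridge of 90.1 kb at chrX:63951800-64041856, inside a LAD of 1745 kb, held *Mir743*, *Mir743b*, *Mir742* and *Mir883a*, with the same 4 states. The 3p miRNAs of *Mir743* and *Mir743b* share the seed AAAGACA. Since genes of 1 bridge share 1 call, these 10 miRNA genes count as 2 regions.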

How the data were processed

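LaminB1-DamID was carried out in 8 libraries of 4 conditions, 1 Dam and 1 LaminB1-Dam library each. The authors mapped reads to mm9 (BWA is named in the submitters' processing notes), computed a log ratio of the fusion over Dam for each DpnI fragment, segmented it with DNAcopy, and deposited 1 list of LAD positions per condition. The abbreviation of a list gave its condition. Their separate lists of differential regions were not used. The shortest LAD in a list is 15001 bp and the shortest gap 4001 bp, so shorter LADs and gaps cannot appear, although borders can differ by less. Depth is unknown.

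The 2 knockdown lists were subtracted by bp (Python 3.11.15, numpy 2.4.6, pandas 2.3.3, plots with matplotlib 3.10.9), reading starts as counted from 0 and printing them from 1. Genes were those of GENCODE vM1, and 24 gene groups were lists of symbols or name patterns (that for interleukins also takes *Il1rapl1*). Intervals are 95% Wilson intervals (scipy 1.17.1). The code was checked by planting 300 pieces of known place, all of which were recovered. The members and the gene groups were chosen with earlier results of these data known. Genes were named by rule: those of the 5 longest and 5 gene-richest pieces of each list, the 10 with the most length in pieces, up to 6 members of a group with at least 50% of the body in a piece, the loci the study discusses, and miRNA genes in the 5 pieces richest in them. A further gene that met this rule is counted in its group but is not reported here. Group members under 50% and other miRNA genes were named after their values were seen. Pieces of at least 30 kb, closed gaps, longer LADs, autosomes and other overlaps were tried as alternatives.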

Additional observations from a re-analysis of the deposited data

How the results depend on the processing

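No paired analysis was possible because each condition has 1 Dam and 1 LaminB1-Dam library, and for the same reason none could be left out. Of 89 recomputed values, 43 stayed within 1.5 times the reported count or length, or within the Wilson interval of a reported share, and 46 did not, counting 1 ratio that crossed 1. Values are given for the single knockdown list alone and then for the double knockdown list alone. In every alternative whole LADs stayed more frequent in the double knockdown list and bridges in the single knockdown list, and the shares in control adipocyte and preadipocyte LADs and the gene counts kept their order. With pieces of at least 30 kb there were 2002 and 2020 pieces, meeting 971 and 1331 genes. Whole LADs then made up 43.7% of the double knockdown pieces and edges 37.5%, 62.7% of the single knockdown pieces lay in control adipocyte LADs, and 46.4% of the double knockdown pieces lay in preadipocyte LADs. Closing gaps under 50 kb left 2428 single knockdown pieces. Whole LADs came to 39.1% and 43.7%, edges to 42.5% and 42.8%, and bridges to 18.4% and 13.6%. The shares in control adipocyte LADs were then 44.8% and 26.0%, and those in preadipocyte LADs 37.5% and 34.3%. Leaving out LADs under 30 kb took the ratio of double to single knockdown length to 0.969, from above 1 to below it. Whole LADs came to 28.0% and 36.1%, edges to 39.5% and 43.1%, bridges to 32.5% and 20.8%, control adipocyte LADs to 66.8% and 46.3%, and preadipocyte LADs to 60.2% and 53.0%. On autosomes alone the single knockdown pieces were 37.7% whole LADs and 26.9% bridges, with 56.7% in control adipocyte and 50.3% in preadipocyte LADs. With any overlap the shares in control adipocyte LADs were 65.4% and 46.6%, and in preadipocyte LADs 62.3% and 55.6%. With at least 80% of the piece they were 53.8% and 33.3%, and 44.97% and 35.8%. Genes with at least 50% of the body in pieces numbered 587 and 877, and gene starts 712 and 1018. The excess of whole LADs was narrowest with closed gaps, at 4.58 percentage points against 9.64. Depth is unknown, so a gap in a LAD cannot be told apart from a stretch with few reads.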

Other observations

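Genes that encode no protein were counted beside protein-coding genes, of which 1.55% and 2.27% lay wholly in pieces of the single and of the double knockdown list and 3.18% and 4.55% had their start there. Of 1273 annotated lincRNA genes, 14 (1.10%) lay wholly in pieces of the single knockdown list alone and 39 (3.06%) in pieces of the double knockdown list alone, and 22 (1.73%) and 57 (4.48%) had their start there. The last share is close to that of protein-coding genes. Of pseudogenes, 279 (5.36%) and 317 (6.09%) of 5201 lay wholly inside. No test was run on these counts, since both rest on 1 culture each.

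Some miRNA genes beyond those described also lay in pieces. *Mir137*, an abundant neuronal miRNA, lay in a bridge of 33.5 kb inside a LAD of 627 kb of the single knockdown and was LAD in all lists but the double knockdown. *Mir217* and *Mir216b* were likewise 100% LAD in preadipocytes, control adipocytes and the single knockdown and 0% in the double knockdown, in pieces of 33.7 and 83.4 kb on chromosome 11. *Mir205* and *Mir128-1* lay in whole LADs of 82.1 and 37.3 kb found in the double knockdown alone. *Mir146*, a regulator of inflammatory signalling, was LAD in control adipocytes and the double knockdown and in neither preadipocytes nor the single knockdown.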
